A study of Mus musculus with 30 samples.

Results

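The 10 genes described here are the metal-responsive transcription factor gene Mtf1, the metallothionein genes Mt1 and Mt2, the zinc transporter genes Slc30a1, Slc30a4, Slc30a5, Slc30a6, Slc30a7 and Slc30a9 of the export family, and Slc39a10 of the import family. They were taken by symbol from the 55401 genes counted in nuclear RNA of mouse embryonic stem cells (mESC), and all 10 were found. The list was selected on measured values, the lower counts of Mtf1 in early G1 and of Slc30a4 in late G1 after 1 h of SRCAP depletion, so the responses of all 10 genes in those sorted cells are given as a description, with no test. SRCAP is the catalytic subunit of the complex that exchanges H2A for the histone variant H2A.Z in nucleosomes.

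Zinc is needed by many enzymes and transcription factors, and free zinc in the cytoplasm is kept very low. MTF1 binds metal response elements in promoters when zinc is in excess and activates the metallothionein genes, whose small cysteine-rich products bind zinc, and Slc30a1, whose product exports zinc across the plasma membrane. Other proteins of the Slc30 family move zinc out of the cytoplasm into vesicles, the Golgi apparatus or mitochondria, and proteins of the Slc39 family bring zinc into the cytoplasm. Metallothionein RNA is widely read as a measure of the zinc and metal load of a cell.

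All libraries came from the CGR8 mESC line or its derivative SYAT, in which both Srcap alleles carry YPet-AID, a fluorescent protein with an auxin-inducible degron, and which expresses the receptor OsTir1. Addition of 500 µM indole-3-acetic acid (IAA) leads to degradation of the tagged protein, and SYAT controls were kept in auxinole, an inhibitor of the receptor. The samples made 15 groups of 2 libraries. Asynchronous SYAT cells were untreated or collected after 2, 4, 6 and 8 h of IAA, and CGR8 cells, which lack the degron, were untreated or treated for 4 h. Other SYAT cells also expressed the fluorescent protein mCherry with a degron that acts in mitosis. They were sorted by DNA content and mCherry in early G1 (EG1) or late G1 (LG1), untreated or treated for 1 h. Below, EG1 and LG1 cells are called the sorted cells. SYAT cells given doxycycline for 24 h to express wild-type (wtSRCAP) or catalytically dead SRCAP (cdSRCAP) were then untreated or treated with IAA for 4 h in the presence of doxycycline. The induced SRCAP was fused to mCherry, and these cells were selected by FACS for similar and high mCherry before RNA was taken. SYAT cells were a selected and sorted population made from 1 clone of the tagged line, and the wtSRCAP and cdSRCAP lines were 1 clone each, so that a clone and its transgene cannot be told apart. Duplicates were separate cultures of the same line, and p-values measure the spread between such cultures.

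The counts came in 4 tables, for CGR8, SYAT, G1-sorted cells, and wtSRCAP with cdSRCAP, each with a column of exon counts and a column of intron counts per library. Exon counts summed to 12236493 to 60214521 per library and intron counts to 2006573 to 32872563. Values are counts-per-million after TMM normalization (CPM), and a gene was called when the absolute log2 fold change exceeded 0.5 and the Benjamini-Hochberg adjusted p of the edgeR quasi-likelihood test was under 0.05. Replicate 2 of 6 h of IAA stood apart, with a median absolute log2 difference between the duplicates of 0.429 over all genes, against 0.202 to 0.317 in the other SYAT groups, and so did the wtSRCAP IAA pair, at 0.56. The 8 ES cell markers, among them Pou5f1, Sox2 and Nanog, summed to 914 to 2910 CPM per kb in the 30 libraries, and the lists of primitive endoderm, trophoblast, mesoderm, neural and fibroblast markers each summed to at most 9.42, with no marker at 0 in all libraries. Counts of the 7 G2/M genes summed to 159 to 343 CPM per kb in the sorted cells and to 435 to 864 in the others. In bulk samples, fewer cells of a type and less RNA per cell cannot be told apart. Srcap RNA does not check the depletion, which acts on the protein.

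The intron columns did not hold the same thing in every table, which bears on every intron value given here. Genes with a single annotated exon and at least 20 exon counts have no intron to count, and none of 1761 such genes had intron counts in the CGR8 table, nor any of 990 in the wtSRCAP and cdSRCAP table. In the SYAT libraries 49.5 to 50.8% of 1213 such genes had intron counts. Of 1884 such genes in the table of sorted cells, 43.8 to 44.6% had them in the EG1 libraries and 0 to 0.0531% in the LG1 libraries. The ratio of intron to exon counts of Mt1 followed this split, at 0.992 to 0.998 in the SYAT libraries, up to 0.983 in EG1, and 0 in CGR8, wtSRCAP, cdSRCAP and LG1 libraries. Intron values are therefore compared between libraries of the same kind. The exception is the comparison of EG1 with LG1 controls, which is given with this limit. Intron columns of EG1 and LG1 libraries were also normalized and fitted together. In SYAT and EG1 cells intron counts share reads with exons for an unknown part of each gene.

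Matches to the metal response element in 1 annotated promoter window of each metallothionein gene are shown, because such elements connect Mtf1 to its targets. The core of the element was searched as TGCACNC or TGCGCNC on both strands in RefSeq promoter windows of GRCm38.p6, from 250 bases before to 50 after each annotated start. At least 1 match was found in 25.7% of 32851 promoters, at least 2 in 7.11% and at least 4 in 0.517%. Mt2 had 4 matches, Mt1 and Slc30a4 had 3 each, Slc30a1 had 2 and Slc30a5 had 1, none overlapping another. The windows of Mtf1, Slc30a6, Slc30a7 and Slc30a9 and both windows of Slc39a10 had none. The 250 bases before the Mt1 start (chr8:94178839-94179088, plus strand) and before the Mt2 start (chr8:94172368-94172617, plus strand) read as follows, with matches on either strand in capitals.
Mt1: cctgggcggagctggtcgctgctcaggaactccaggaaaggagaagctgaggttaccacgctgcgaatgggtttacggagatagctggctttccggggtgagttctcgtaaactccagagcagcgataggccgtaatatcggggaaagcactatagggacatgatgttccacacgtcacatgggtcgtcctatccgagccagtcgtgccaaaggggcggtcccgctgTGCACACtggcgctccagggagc
Mt2: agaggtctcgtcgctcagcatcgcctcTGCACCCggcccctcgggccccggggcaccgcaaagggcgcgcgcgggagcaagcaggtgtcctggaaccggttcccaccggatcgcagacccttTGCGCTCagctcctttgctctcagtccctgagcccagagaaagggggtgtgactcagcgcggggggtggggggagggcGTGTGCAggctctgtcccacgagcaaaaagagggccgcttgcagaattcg

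The other matches are given as 25-base stretches on the strand of the gene, again with the match in capitals, and a match on the opposite strand reads as GNGTGCA or GNGCGCA. Distances are from the RefSeq start of each window, and sequence outside the windows was not searched. The matches of Mt1 and Mt2 after this start completed the 3 and 4 matches in their windows. That of Mt2, at chr8:94172622-94172628, lies before the start of the gene in GENCODE, at base 94172664. Those of Slc30a1, the plasma membrane exporter and a known MTF1 target, began 43 bases before and 30 after its start. Those of Slc30a4 began 228, 92 and 6 bases before its start.
Mt1, 2 bases after the start (chr8:94179082-94179106): agggagctcTGCACTCcgcccgaaa
Mt1, 20 bases after the start (chr8:94179100-94179124): cccgaaaagTGCGCTCggctctgcc
Mt2, 4 bases after the start (chr8:94172613-94172637): attcgggtcGTGCGCAggcccaggg
Slc30a1, 43 bases before the start (chr1:191906729-191906753): gggggttccGAGTGCAaagcaaagt
Slc30a1, 30 bases after the start (chr1:191906802-191906826): ctccgggccGAGCGCAgtcgccgcg
Slc30a4, 228 bases before the start (chr2:122702876-122702900): gggggctcaGAGCGCAcaagacctc
Slc30a4, 92 bases before the start (chr2:122702740-122702764): gcgcctcgcGGGCGCAcgcgccgcc
Slc30a4, 6 bases before the start (chr2:122702654-122702678): ggggcgggcGGGTGCAgtggctggg
The match in Slc30a5 began 48 bases before its start. A match is a description of these letters, and binding of MTF1 was not measured here.

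Per kilobase of exon, the metallothionein genes were the most abundant of the 10 genes in every group. The mean level of Mt2 ranged from 53.8 to 298 CPM per kb over the 15 groups and that of Mt1 from 55.4 to 243. The order of these 2 genes rests on the exon length used, 588 bases for Mt2 and 1246 for Mt1, whose annotated exons cover its whole 1.25 kb. In plain CPM the mean of Mt1 exceeded that of Mt2 in every group, as with 302 against 174 at 2 h of IAA in SYAT cells. Next came the importer Slc39a10, at 15.6 to 42 CPM per kb. Slc30a1, at 7.74 to 21.5, and Slc30a5, at 7.83 to 13.2, followed. The other exporters and Mtf1 were low: Slc30a6 lay at 3.44 to 6.04, Slc30a9 at 2.16 to 4.95, Mtf1 at 2.02 to 3.7, Slc30a7 at 1.79 to 3.71 and Slc30a4 at 0.904 to 3.42 CPM per kb. The ranges of Mt1 and Mt2 overlapped, as did those of Slc30a1 and Slc30a5 and those of neighbours among the low genes, whereas the range of Slc39a10 lay apart from those of Mt1 and Mt2, and that of Slc30a6 lay below that of Slc30a5. Slc39a10 also overlapped Slc30a1, and levels were normalized separately in each of the 4 tables.

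No member was called in exon counts in any of the 12 comparisons tested. All 10 genes passed the filter on low counts in exon columns of every table, while in intron columns Mt1, Mt2, Slc30a1 and Slc30a4 did not pass in the CGR8 table or in the wtSRCAP and cdSRCAP table. Calls by edgeR were rare among all genes too. Of all genes tested in exon columns, edgeR called 0.00988% in CGR8 cells, 0% at 2 h, 0% at 4 h, 0.0677% at 6 h and 0.00521% at 8 h in SYAT cells, 0% at any of the 4 times together, and 0% between EG1 and LG1 controls. In the lines with induced SRCAP it called 0.00523% with wtSRCAP, 0% with cdSRCAP, 0% between their controls, 0.00523% between their IAA groups and 0% for the difference in response. DESeq2 called no member in exon columns either. Of all genes it called 9, 185, 639 and 463 at 2, 4, 6 and 8 h in SYAT exons. With the replicate number as a block, where same-numbered libraries deviated together, edgeR called 1 member between EG1 and LG1 controls (Mt1, among 0.723% of all genes), 1 with cdSRCAP (Slc39a10, among 1.81%), and none with wtSRCAP (3.2%), between the controls of these lines (0.91%), between their IAA groups (1.41%) or for the difference (0%). At an unadjusted p under 0.05 in the edgeR test, 2 of 10 members passed in CGR8 cells (9.16% of all genes), 1 at 2 h (3.92%), 1 at 4 h (9.09%), 1 at 6 h (16.1%) and 1 at 8 h (13.6%) in SYAT cells. The same count was 1 of the 8 members tested between EG1 and LG1 controls (1.44%), 0 with wtSRCAP (7.4%), 2 with cdSRCAP (5.64%), and 0 between their controls (3.82%), between their IAA groups (5.03%) and for the difference in response (0.785%). The test of the 4 times together had 1 (7.63%). The median log2 fold change of the 10 genes stayed between -0.167 and -0.0575 in the IAA comparisons of SYAT, CGR8, wtSRCAP and cdSRCAP cells, against medians of -0.0241 to 0.0308 over all genes.

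Groups of 2 libraries often do not overlap, so the members whose groups lay apart are given beside the share of all genes that did so in the same direction. In exon columns of SYAT cells, 4 members were lower without overlap at 2 h (21% of all genes) and 2 higher (18.6%), 3 lower at 4 h (24.1%) and 2 higher (21.7%), 2 lower at 6 h (22.2%) and 2 higher (21.5%), and 1 lower at 8 h (24%) and 2 higher (20.9%). In CGR8 cells 2 were lower (20.6%) and 1 higher (21.6%). With wtSRCAP 1 was lower (19.5%) and 1 higher (14.9%), and with cdSRCAP 3 were lower (19%) and 1 higher (18.7%). In EG1 cells 2 were lower (13.4%), and in LG1 cells 3 were lower (10.4%) and 1 higher (7.83%). Between controls, 1 of the members was lower (10.7%) and 2 were higher (11.7%) in EG1 than in LG1 cells, and 1 was lower with cdSRCAP than with wtSRCAP (14.1%).

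**Figure D1:**
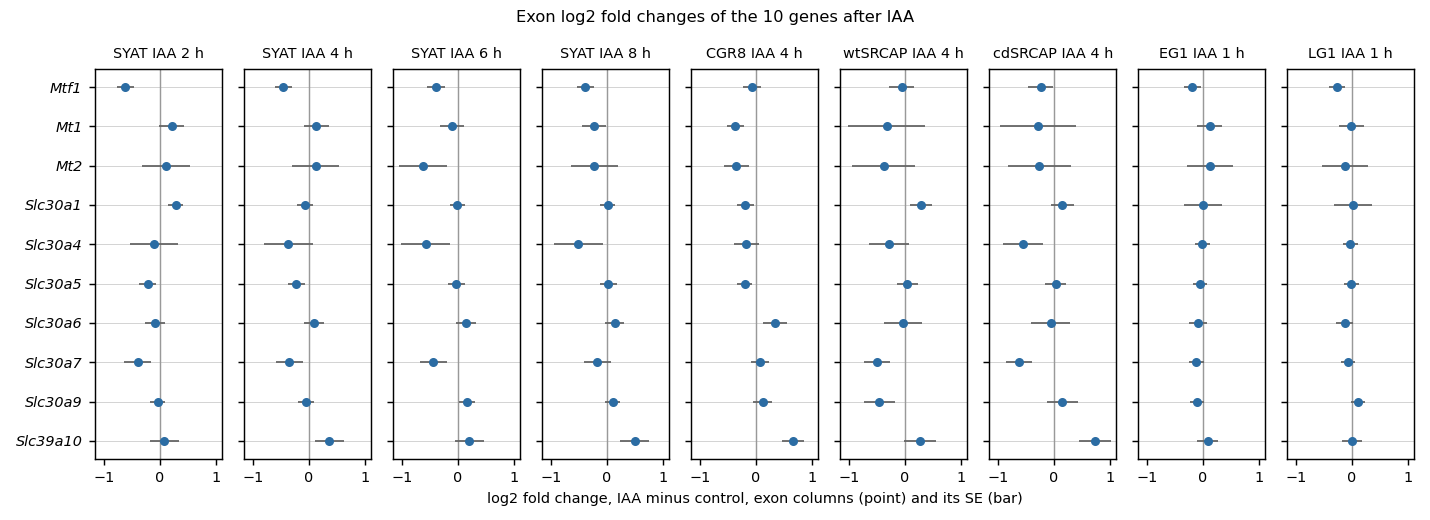
Log2 fold change of exon counts (IAA minus control, x axis) of each of the 10 genes (y axis) in 9 panels, 1 per comparison, with points for the estimate and bars for its standard error. Most estimates lie within 0.5 of 0, Mtf1 is lowest at 2 h of IAA (-0.62), and Slc39a10 is highest in CGR8 (0.66) and cdSRCAP (0.73) cells.

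Mtf1 lies at chr4:124802104-124849800 (GRCm38, plus strand), and its exons overlap the gene 1110065P20Rik on the opposite strand. Its exon level was lower at every time of IAA treatment in asynchronous SYAT cells, without reaching the threshold. The 2 SYAT controls stood at 27.6 and 27.8 CPM, and the libraries at 2 h of IAA at 16.8 and 19.2. At 4 h Mtf1 stood at 20.2 and 20.1, at 6 h at 21.4 and 21, and at 8 h at 19.6 and 22.6 CPM. All 8 treated libraries lay below both controls, a pattern that Mtf1 alone of the 10 genes had and that 9.2% of 19205 genes shared. None of the 10 genes had all 8 libraries above both controls, as 5.97% of all genes did.

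The log2 fold change of Mtf1 was -0.62 (SE 0.156) at 2 h, -0.46 (SE 0.155) at 4 h, -0.39 (SE 0.156) at 6 h and -0.39 (SE 0.155) at 8 h. In the edgeR quasi-likelihood test with Benjamini-Hochberg adjustment over all genes, the adjusted p was 0.841 at 2 h, 0.371 at 4 h, 0.264 at 6 h and 0.304 at 8 h. Unadjusted edgeR p-values were 0.0025, 0.0137, 0.0322 and 0.029. A test of all 4 times together gave an adjusted p of 0.514 in edgeR. The 4 comparisons share the 2 control libraries, so they are not 4 separate observations. Without replicate 2 of 6 h, the library that stood apart, the log2 fold change at 6 h was -0.37 (edgeR adjusted p = 0.39). The 3 trophoblast markers summed to 2.04 to 2.87 CPM per kb in the SYAT controls and to 3.13 to 4.92 in the treated libraries, the 3 neural markers to 0.71 to 1.04 and 1.13 to 2.05, and the 7 G2/M genes to 573 to 621 and 644 to 738. Taken singly, 1 of 3 trophoblast markers (Eomes), 1 of 3 neural markers (Pax6) and 2 of 7 G2/M genes lay above both controls in all 8 treated libraries, none was at 0, and their part in the values of Mtf1 was not tested.

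In CGR8 cells, which have no degron, Mtf1 exon counts stood at 30.8 and 35 CPM in the controls and at 33.4 and 29.4 after 4 h of IAA, and the groups overlapped. The log2 fold change was -0.07 (SE 0.156, edgeR adjusted p = 0.924). In cells with wtSRCAP the controls stood at 26.4 and 26.2 CPM and the IAA libraries at 27 and 23.6, again overlapping. With cdSRCAP the controls stood at 25.8 and 28.6 and the IAA libraries at 25.2 and 20.9 CPM, both below the controls, as for 19% of genes. The fitted log2 fold change was -0.06 (SE 0.219) with wtSRCAP and -0.24 (SE 0.219) with cdSRCAP, with edgeR adjusted p of 0.987 and 0.996. The difference between these responses was -0.18 (SE 0.309, edgeR adjusted p = 1). CGR8 and SYAT libraries are in separate tables, and the difference between their responses was not tested.

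**Figure D2:**
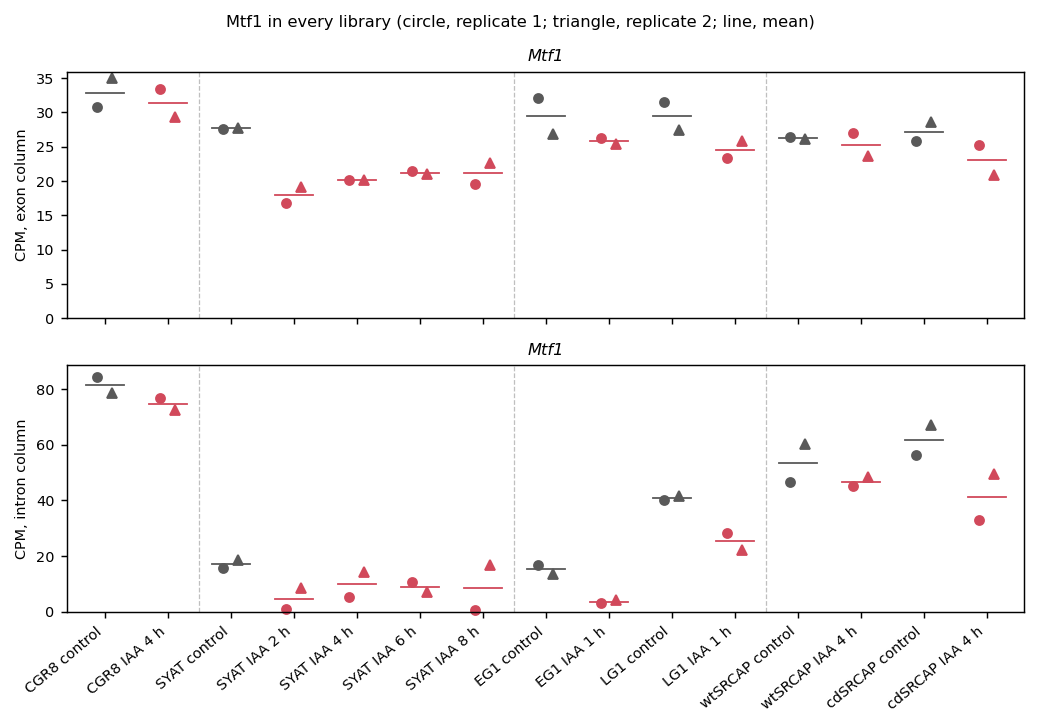
Mtf1 in every library, as CPM of exon and of intron columns (y axis, from 0) by group (x axis), with a circle for replicate 1, a triangle for replicate 2, a line at the group mean, controls in grey and IAA in red. The 8 SYAT libraries with IAA lie at 16.8 to 22.6 CPM in exon columns, below the controls at 27.6 and 27.8, and intron values of the SYAT groups are widely spread.

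In the sorted cells, Mtf1 intron counts are the values that put the gene on the list, and they are given without a test. In EG1 controls 483 and 319 reads were counted, or 16.7 and 13.7 CPM, and after 1 h of IAA 60 and 81 reads, or 2.99 and 4.05 CPM. The estimated log2 fold change was -2.11 (SE 0.248), with no overlap between the groups, as for 14.7% of genes lower in that comparison. In LG1 cells the controls held 317 and 252 reads (40.1 and 41.5 CPM) and the IAA libraries 238 and 120 (28.2 and 22.3 CPM), a log2 fold change of -0.69 (SE 0.237), again without overlap, as for 13.7% of genes. The exon columns of the same libraries differed less. They gave 32.1 and 26.8 CPM in EG1 controls and 26.3 and 25.4 with IAA, a log2 fold change of -0.19, and 31.5 and 27.5 CPM in LG1 controls and 23.3 and 25.8 with IAA, a log2 fold change of -0.27. With exon and intron counts summed, the log2 fold change was -0.55 in EG1 and -0.39 in LG1 cells. By the thresholds used for sorted cells, an absolute log2 fold change over 0.25 and an unadjusted p under 0.05, 2.28% of 17441 genes passed in intron columns in EG1 and 3.94% in LG1. In exon columns 1.22% and 1.02% of 21020 genes passed. With the replicate number as a block these shares were 4.32% and 9.02% in intron columns and 6.04% and 4.2% in exon columns.

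Mtf1 introns varied widely within the duplicates of the asynchronous SYAT libraries. The controls held 314 and 461 intron reads, and the libraries at 2 h held 17 and 203. At 4 h the counts were 97 and 371, at 6 h 196 and 120, and at 8 h 9 and 463. At 8 h the duplicates held the lowest and the highest count of the 10 libraries. The biological coefficient of variation was 0.876, above that of 96.9% of 14719 genes, whose median was 0.234. On the log2 scale the fold change at 2 h was -1.87 (SE 1.36, edgeR adjusted p = 1), and it was -0.8 at 4 h, -0.94 at 6 h and -0.99 at 8 h, with no call. The ratio of intron to exon counts of Mtf1 ran from 0.0225 to 0.842 in the SYAT libraries, from 0.108 to 0.522 in the sorted cells, and from 0.245 to 0.295 in the CGR8 libraries.

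In the other tables Mtf1 introns were steadier. In CGR8 cells they stood at 84.3 and 78.6 CPM in the controls and at 76.8 and 72.5 with IAA, a log2 fold change of -0.12 (SE 0.178, edgeR adjusted p = 0.963). With wtSRCAP they stood at 46.6 and 60.2 CPM in the controls and at 45.1 and 48.4 with IAA, and with cdSRCAP at 56.2 and 67.2 in the controls and 33.1 and 49.5 with IAA. The IAA libraries lay below the controls in CGR8 cells, as for 17.5% of genes, and with cdSRCAP, as for 24.6%, and overlapped with wtSRCAP. Its log2 fold change was -0.58 (SE 0.247, edgeR adjusted p = 0.423) with cdSRCAP and -0.19 (SE 0.251, edgeR adjusted p = 0.807) with wtSRCAP. The difference between the lines was -0.39 (SE 0.352, edgeR adjusted p = 1).

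The gene on the opposite strand, 1110065P20Rik, was counted apart from Mtf1, and how the strand was used in counting is not given in the sources used here. Its mean exon level was 7.294 CPM in SYAT controls and 7.002, 8.171, 14.14 and 9.077 at 2, 4, 6 and 8 h, so it did not follow Mtf1 at these times. In CGR8 cells it stood at 6.267 in controls and 2.968 with IAA (log2 fold change -1.08, edgeR adjusted p = 0.54).

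Mt1 (chr8:94179082-94180327) and Mt2 (chr8:94172664-94173568) lie 5514 bases apart on the plus strand of GRCm38, and their products buffer zinc, copper and cadmium. Neither was called in exon counts after IAA in any cells. In SYAT controls Mt1 stood at 273 and 251 CPM, at 2 h of IAA at 309 and 296, and at 4 h at 303 and 270. At 6 h Mt1 stood at 292 and 193 and at 8 h at 269 and 178 CPM. Only the libraries at 2 h lay entirely outside the controls, above them. The log2 fold change of Mt1 was 0.21, 0.13, -0.11 and -0.23 at 2, 4, 6 and 8 h (SE 0.22 at each), with edgeR adjusted p of 0.704 to 1.

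Mt2 in SYAT cells stood at 152 and 171 CPM in the controls, at 164 and 184 at 2 h and at 172 and 177 at 4 h. At 6 h it stood at 163 and 45.3 and at 8 h at 157 and 117 CPM. Both libraries lay above both controls at 4 h, and the other groups overlapped them. The low value at 6 h rests on the library that stood apart, replicate 2, with 737 reads against 2803 in replicate 1. The fitted log2 fold change at 6 h was -0.63 (SE 0.425, edgeR adjusted p = 0.484), and it was 0.11, 0.12 and -0.23 at 2, 4 and 8 h. With replicate 2 as the only library at 6 h, Mt2 was called as lower, together with Slc30a7, but so were 15.4% of 20497 genes in either direction, and the spread then came from the other SYAT groups. With replicate 1 as the only library at 6 h neither was called.

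**Figure D3:**
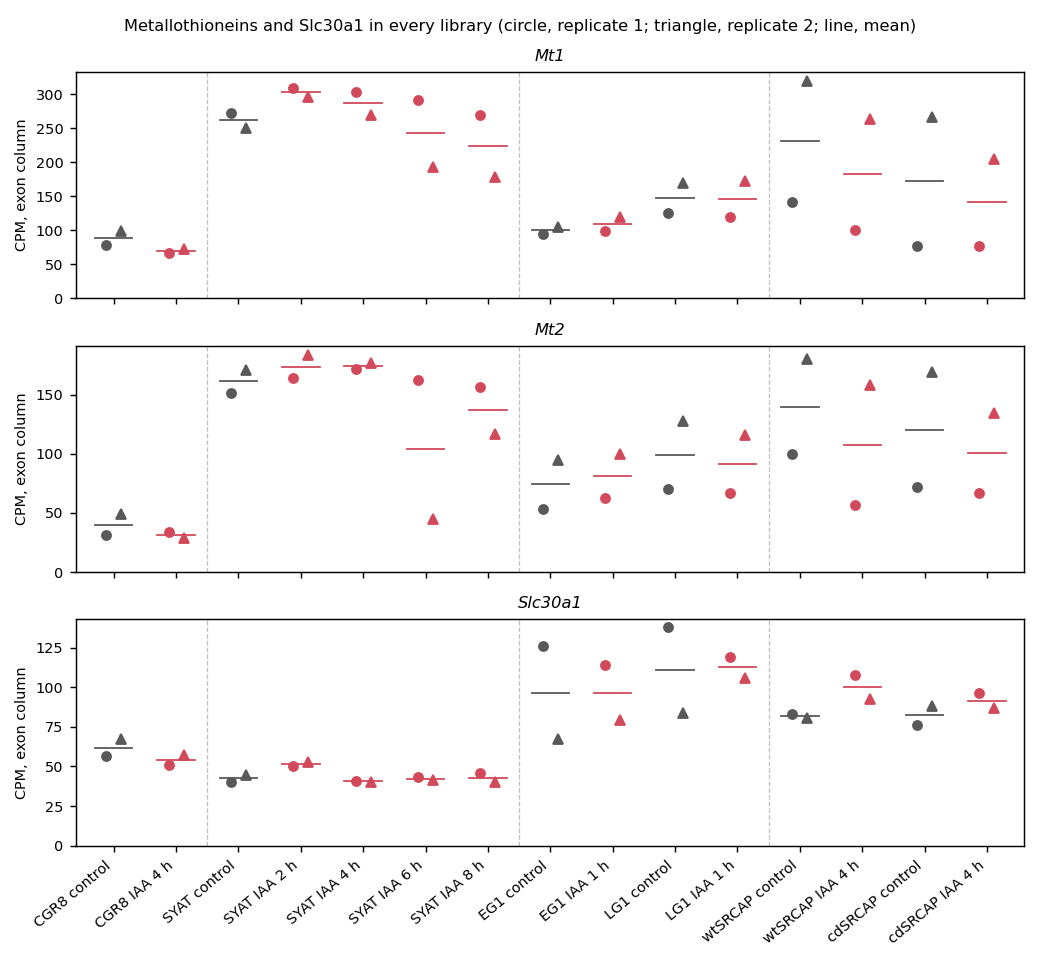
Mt1, Mt2 and Slc30a1 exon CPM (y axis, from 0) in every library by group (x axis), with a circle for replicate 1, a triangle for replicate 2, a line at the group mean, controls in grey and IAA in red. In the wtSRCAP and cdSRCAP groups replicate 2 lies above replicate 1 for both metallothionein genes, and at 6 h of IAA the Mt2 replicates stand at 163 and 45.3 CPM.

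In CGR8 cells Mt1 stood at 78.6 and 99.2 CPM in the controls and at 66.1 and 71.9 after IAA, both lower, as for 20.6% of genes. The estimated log2 fold change was -0.37 (SE 0.155, edgeR adjusted p = 0.544), and its unadjusted p of 0.0439 was 1 of the 2 under 0.05 in that comparison. Mt2 stood at 31.1 and 49.3 in the controls and at 34 and 29.2 CPM with IAA, with overlap (log2 fold change -0.35, edgeR adjusted p = 0.653).

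With wtSRCAP, Mt1 stood at 141 and 320 CPM in the controls and at 101 and 264 with IAA. With cdSRCAP it stood at 77.3 and 267 in the controls and at 77 and 205 with IAA. Replicate 2 was higher than replicate 1 in 4 of 4 groups, by 2.27 to 3.45-fold. At the same replicate number the IAA library was lower than the control in both lines, least so in cdSRCAP replicate 1. Mt2 showed the same order, with 100 and 180 CPM in wtSRCAP controls, 56.6 and 158 with IAA, 71.9 and 169 in cdSRCAP controls and 66.9 and 135 with IAA. Replicate 2 of Mt2 was 1.8 to 2.79-fold higher in these 4 groups. The replicates also differed as libraries. The most abundant gene took 12 to 23.9% of exon counts in replicate 1 and 4.42 to 6.71% in replicate 2. Replicate 1 also held fewer exon counts in each group, and the part of this in the metallothionein values was not tested. On the log2 scale the fold change of Mt1 was -0.33 (SE 0.682) with wtSRCAP and -0.29 (SE 0.682) with cdSRCAP. That of Mt2 was -0.38 and -0.26, and the edgeR adjusted p of both genes were 0.933 to 0.996. These fits had no replicate block, so the offset between replicates is part of their SE. With the block neither gene was called, and how many of all genes were lower at each replicate number was not counted. The biological coefficient of variation in this table was 0.471 for Mt1, above that of 82.1% of genes, and 0.395 for Mt2, above 71.3%.

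In the sorted cells Mt1 stood at 95.2 and 105 CPM in EG1 controls and at 98.6 and 120 after 1 h of IAA, and at 125 and 170 in LG1 controls and 119 and 173 with IAA. Mt2 stood at 53.2 and 95.1 in EG1 controls, 62.4 and 99.7 with IAA, 70.7 and 128 in LG1 controls and 67.3 and 116 with IAA. IAA groups and controls overlapped for both genes, and replicate 2 was higher than replicate 1 in all 4 groups, by 1.1 to 1.45-fold for Mt1 and 1.6 to 1.81-fold for Mt2. Between the controls, both Mt1 libraries were lower in EG1 than in LG1, as for 10.7% of genes (log2 fold change -0.55, SE 0.228, edgeR adjusted p = 1, and -0.54 with adjusted p = 0.000619 with the replicate block), while Mt2 overlapped (log2 fold change -0.42, edgeR adjusted p = 1).

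Slc30a1 (chr1:191906767-191913247, plus strand) encodes the exporter at the plasma membrane. In SYAT cells it stood at 40.3 and 44.7 CPM in the controls and at 50.4 and 52.8 after 2 h of IAA, both above the controls. At 4 h it stood at 41.1 and 40.1, at 6 h at 43.5 and 41.2 and at 8 h at 45.7 and 39.9 CPM. The later groups overlapped the controls. Its log2 fold change at 2 h was 0.28 (SE 0.136, edgeR adjusted p = 1), and those at 4 to 8 h lay between -0.07 and 0.01. Slc30a1 and Mt1 were the members with both libraries above both controls at 2 h, as were 18.6% of 19205 genes.

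In CGR8 cells Slc30a1 stood at 56.6 and 67.2 CPM in the controls and at 51.1 and 57.1 with IAA (log2 fold change -0.19, edgeR adjusted p = 0.714). With wtSRCAP it stood at 82.9 and 80.6 CPM in the controls and at 108 and 92.4 with IAA, without overlap as for 14.9% of genes, and with cdSRCAP at 76 and 88.4 in the controls and 96.1 and 86.9 with IAA, with overlap. The log2 fold change was 0.29 (SE 0.2, edgeR adjusted p = 0.793) with wtSRCAP and 0.15 (SE 0.2, edgeR adjusted p = 0.996) with cdSRCAP. In the sorted cells replicate 1 was higher in 4 of 4 groups, at 126 against 67.2 CPM in EG1 controls and 138 against 83.7 in LG1 controls, and at 114 against 79.2 and 119 against 106 with IAA. The fitted log2 fold change with IAA was 0 in EG1 and 0.02 in LG1 cells (SE 0.343 in each).

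Slc30a4 (chr2:122681233-122702663, minus strand) encodes a vesicular exporter, known for loading zinc into milk in the mammary gland, and it was among the lowest of the 10 genes per kilobase. In LG1 cells, where intron counts put it on the list, 42 and 24 intron reads were counted in the controls and 3 and 4 after 1 h of IAA. These made 5.32 and 3.96 CPM against 0.355 and 0.742, a log2 fold change of -3.15 (SE 0.382), given as a description. In EG1 cells the controls held 551 and 485 intron reads (19.1 and 20.8 CPM) and the IAA libraries 423 and 434 (21.1 and 21.7 CPM), a log2 fold change of 0.1. The libraries thus lay apart in opposite directions in EG1 and LG1 cells, as for 1.3% of genes, in intron columns that differ in kind. The exon columns did not follow. They stood at 16.7 and 16.2 CPM in LG1 controls and at 16.2 and 16 with IAA, and at 18.8 and 18.6 in EG1 controls and 19.5 and 17.7 with IAA, log2 fold changes of -0.03 and -0.01. With exon and intron counts summed, the log2 fold change in LG1 cells was -0.13. A count of 3 reads was also the floor taken for detection, so the LG1 libraries with IAA were at or next to that floor.

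**Figure D4:**
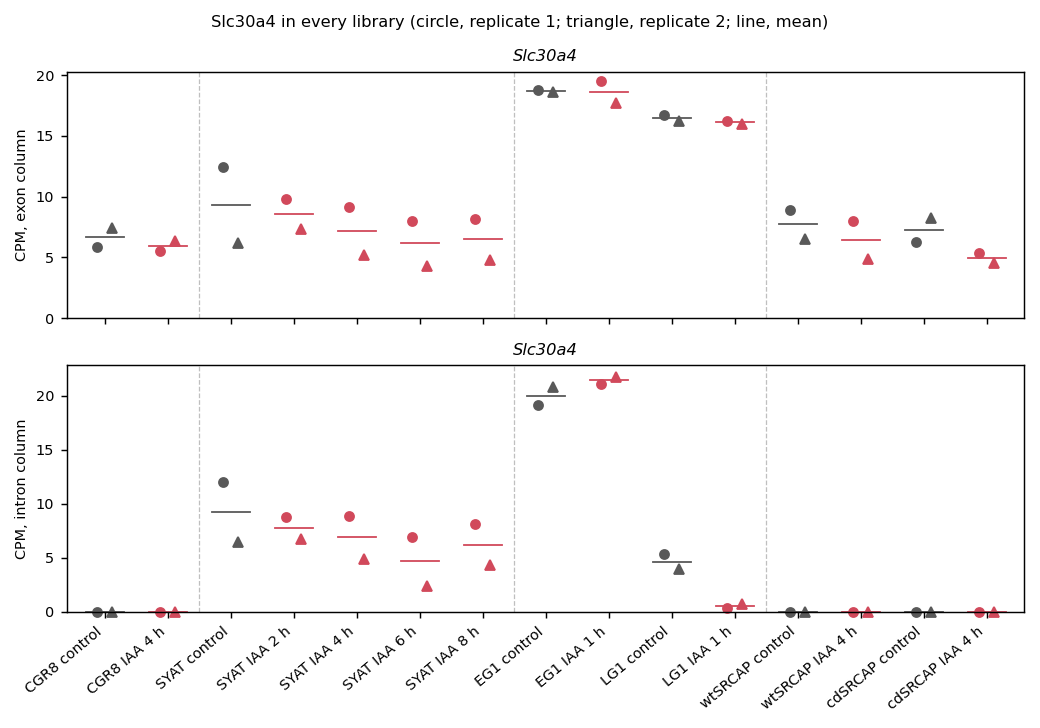
Slc30a4 in every library, as CPM of exon and of intron columns (y axis, from 0) by group (x axis), with a circle for replicate 1, a triangle for replicate 2, a line at the group mean, controls in grey and IAA in red. Intron values are 0 in CGR8, wtSRCAP and cdSRCAP libraries and lie at 5.32 and 3.96 CPM in LG1 controls against 0.355 and 0.742 with IAA, while exon values of LG1 lie at 16 to 16.7 CPM.

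In asynchronous SYAT cells Slc30a4 exon counts stood at 12.4 and 6.15 CPM in the controls, 9.81 and 7.34 at 2 h and 9.11 and 5.2 at 4 h. At 6 h they stood at 8.01 and 4.3 and at 8 h at 8.17 and 4.81 CPM. Replicate 1 was higher in 5 of 5 groups, by 1.34 to 2.02-fold, and each group overlapped the controls. The estimated log2 fold change was -0.11, -0.37, -0.58 and -0.51 at 2, 4, 6 and 8 h (SE 0.434 to 0.442), with edgeR adjusted p of 0.538 to 1. In CGR8 cells it stood at 5.87 and 7.43 CPM in controls and 5.5 and 6.36 with IAA (log2 fold change -0.17, edgeR adjusted p = 0.861). With wtSRCAP it stood at 8.94 and 6.54 in the controls and 8 and 4.89 with IAA, and with cdSRCAP at 6.25 and 8.21 in the controls and 5.39 and 4.53 with IAA. Only in cdSRCAP cells did both IAA libraries lie below both controls, as for 19% of genes. On the log2 scale the fold change there was -0.55 (SE 0.355, edgeR adjusted p = 0.995), and the difference between the lines was -0.27 (SE 0.502, edgeR adjusted p = 1). No intron read of Slc30a4 was counted in any CGR8, wtSRCAP or cdSRCAP library, where 3 reads correspond to 0.412 to 0.769 CPM and 0.556 to 1.5 CPM.

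Of the genes within 50 kb of a member, Bloc1s6 was the one that edgeR called in intron columns after IAA in asynchronous SYAT cells. Bloc1s6 lies 35840 bases from Slc30a4 and encodes a subunit of a complex for the biogenesis of lysosome-related organelles. Its intron level fell from a mean of 11 CPM in controls to 0.4393 at 8 h, by 4.64 on the log2 scale (edgeR adjusted p = 0.0289). Its exon level stood at 23.33 CPM in controls and 12.03 at 8 h (log2 fold change -0.96, edgeR adjusted p = 0.0972). The intron call was the only one of all genes at 8 h, and the count of calls was 0 when any 1 of the 4 libraries compared was left out, with the 2 groups fitted alone, and with exon and intron counts summed.

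Slc30a5, Slc30a6 and Slc30a7 encode exporters of the early secretory pathway, which supply zinc to enzymes such as alkaline phosphatase. Slc30a7 (chr3:115938973-116007406, minus strand) was the one with the most separated groups. In SYAT cells it stood at 34.5 and 29.1 CPM in the controls, 25.6 and 22.7 at 2 h and 28.3 and 21.6 at 4 h. At 6 h it stood at 29 and 18.1 and at 8 h at 31.2 and 25.5 CPM. Both libraries lay below both controls at 2, 4 and 6 h, as did 21%, 24.1% and 22.2% of genes, and at 8 h they overlapped. Its log2 fold change was -0.4, -0.35, -0.44 and -0.17 at 2, 4, 6 and 8 h (SE 0.237 to 0.239), with edgeR adjusted p of 0.394 to 1.

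With wtSRCAP, Slc30a7 stood at 27.7 and 30.2 CPM in the controls and at 17.7 and 23.2 with IAA. With cdSRCAP it stood at 33.6 and 28 in the controls and at 19.8 and 20.1 with IAA. All 4 IAA libraries lay below all 4 controls, as for 6.35% of 19111 genes. The log2 fold change was -0.5 (SE 0.233, edgeR adjusted p = 0.693) with wtSRCAP and -0.62 (SE 0.232, edgeR adjusted p = 0.808) with cdSRCAP, and the difference was -0.13 (SE 0.328, edgeR adjusted p = 1). In introns the log2 fold change was -0.25 with wtSRCAP and -0.27 with cdSRCAP. In CGR8 cells Slc30a7 stood at 25.2 and 30.3 CPM in the controls and at 28.9 and 29.4 with IAA, a log2 fold change of 0.07 (SE 0.16, edgeR adjusted p = 0.922). In the sorted cells it lay at 36.5 to 44.6 CPM in all 8 libraries.

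Slc30a5 (chr13:100802648-100833427, minus strand) and Slc30a6 (chr17:74395608-74424221, plus strand), whose products act as a heterodimer, were not called in any comparison. Over the 30 libraries Slc30a5 lay at 52.7 to 99.7 CPM in exon columns. Its log2 fold change in SYAT cells was -0.22, -0.23, -0.03 and 0.02 at 2, 4, 6 and 8 h, it was -0.2 in CGR8 cells, and it was 0.04 with wtSRCAP and 0.03 with cdSRCAP. Slc30a6 lay at 8.21 to 22.1 CPM, with duplicates 1.1 to 1.59-fold apart in the wtSRCAP and cdSRCAP groups, and with log2 fold changes of -0.09, 0.09, 0.14 and 0.14 in SYAT cells and 0.34 (SE 0.21, edgeR adjusted p = 0.647) in CGR8 cells. Its introns stood at 26.1 and 24.5 CPM in wtSRCAP controls and 32.9 and 36.2 with IAA, and at 19.4 and 22.8 in cdSRCAP controls and 24.8 and 32 with IAA. Both pairs were higher with IAA without overlap, as for 20.4% and 21.8% of genes, with log2 fold changes of 0.45 (SE 0.254) and 0.43 (SE 0.252) and edgeR adjusted p of 0.495 and 0.589.

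Slc30a9 (chr5:67306955-67358443, plus strand) encodes the mitochondrial exporter. In SYAT cells it lay at 33.5 to 41 CPM in all 10 libraries, with log2 fold changes of -0.04, -0.05, 0.16 and 0.1 at 2, 4, 6 and 8 h. In the sorted cells it stood at 60.2 and 62.2 CPM in EG1 controls and 54.9 and 58.4 with IAA, and at 51.6 and 52.7 in LG1 controls and 52.9 and 59.8 with IAA. Both EG1 libraries were thus lower with IAA and both LG1 libraries higher, a pattern shared by 1.87% of 21020 genes. The fitted log2 fold change was -0.11 in EG1 and 0.11 in LG1 cells. With wtSRCAP it stood at 45.1 and 28.5 CPM in the controls and at 29.1 and 24.4 with IAA, and with cdSRCAP at 27.9 and 31.1 in the controls and at 37.3 and 28 with IAA. The groups overlapped in both lines, and the difference in response was 0.61 (SE 0.39, edgeR adjusted p = 1).

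Slc39a10 (chr1:46807544-46892852, minus strand) encodes an importer at the plasma membrane, and metal-dependent repression of the gene by MTF1 is known from other cells. Its exon level was higher with IAA in CGR8 cells, which carry no degron. The controls there stood at 76.7 and 113 CPM and the IAA libraries at 136 and 164, above both controls, as for 21.6% of 20250 genes. The estimated log2 fold change was 0.66 (SE 0.196, edgeR adjusted p = 0.54), with an unadjusted p of 0.00895. Slc39a10 was called as higher without the filter on low counts (edgeR adjusted p = 0.0027), where 1.26% of 30751 genes were called. It was also called without replicate 2 of the controls (log2 fold change 0.97, edgeR adjusted p = 1.03e-05), where 10.9% of 21680 genes were called and the spread came from the IAA pair alone, the lone control being assumed to vary like it. Over all alternatives its adjusted p ran from 1.03e-05 to 1 in edgeR, and it was 0.0519 in DESeq2. In the same libraries the summed levels of the neural markers (2.57 and 2.79 CPM per kb in controls, 3 and 3.12 with IAA), of the fibroblast markers (3.38 and 3.62, then 3.85 and 3.86) and of the G2/M genes (589 and 628, then 631 and 655) lay higher with IAA. Taken singly, 1 of 3 neural markers, 1 of 4 fibroblast markers and 4 of 7 G2/M genes did so. Another 1 of the 3 neural markers lay lower with IAA without overlap. No marker was at 0, and the part of these markers in the values of Slc39a10 was not tested. Introns of Slc39a10 stood at 108 and 123 CPM in CGR8 controls and at 153 and 198 with IAA (log2 fold change 0.6, SE 0.176, edgeR adjusted p = 0.91).

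In SYAT cells Slc39a10 exons stood at 183 and 178 CPM in the controls, 205 and 178 at 2 h and 261 and 203 at 4 h. At 6 h they stood at 272 and 144 and at 8 h at 289 and 223 CPM. The libraries lay above both controls at 4 and 8 h, as did 21.7% and 20.9% of genes, and overlapped at 2 and 6 h, where at 6 h the library that stood apart was the lower one. On the log2 scale the fold change was 0.08, 0.36, 0.2 and 0.5 at 2, 4, 6 and 8 h (SE 0.26), with edgeR adjusted p of 0.431 to 1.

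With cdSRCAP, Slc39a10 exons stood at 103 and 97.3 CPM in the controls and at 189 and 144 with IAA, without overlap. With wtSRCAP they stood at 147 and 156 in the controls and at 132 and 235 with IAA, with overlap. Its log2 fold change was 0.73 (SE 0.282, edgeR adjusted p = 0.811, and 0.74 with adjusted p = 0.0412 with the replicate block) with cdSRCAP and 0.27 (SE 0.28, edgeR adjusted p = 0.887) with wtSRCAP. The difference between the responses was 0.46 (SE 0.396, edgeR adjusted p = 1). The cdSRCAP controls lay below the wtSRCAP controls (log2 fold change -0.6, SE 0.281, edgeR adjusted p = 1).

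Introns of Slc39a10 were higher with IAA in both lines. They stood at 200 and 212 CPM in wtSRCAP controls and 320 and 273 with IAA, and at 157 and 177 in cdSRCAP controls and 254 and 230 with IAA. All 4 IAA libraries lay above all 4 controls, as for 4.24% of 12702 genes. The same order held for the summed exon levels of the trophoblast markers (0.953 to 1.45 CPM per kb in controls, 1.67 to 3.62 with IAA), of the mesoderm markers (0.311 to 0.479, then 0.584 to 1.17) and of the fibroblast markers (1.18 to 2.07, then 2.38 to 3.64). Taken singly, 1 of 3 trophoblast markers (Eomes) had that order, and 1 had the reverse order, with all IAA libraries below all controls. None of the 3 mesoderm or 4 fibroblast markers lay apart in either direction. No marker was at 0 in all 8 libraries, and the part of these markers in the values of Slc39a10 and Slc30a7 was not tested. The log2 fold change was 0.52 (SE 0.15, edgeR adjusted p = 0.211) with wtSRCAP and 0.53 (SE 0.15, edgeR adjusted p = 0.208) with cdSRCAP, where 0.299% and 0.236% of genes were called in introns and no member was. Without replicate 1 of the wtSRCAP IAA pair, the library with the lower normalization factor, the value with wtSRCAP was 0.39 (edgeR adjusted p = 0.503). The difference between the lines was 0.01 (SE 0.211, edgeR adjusted p = 1). In the sorted cells Slc39a10 exons lay at 144 to 188 CPM with overlap between controls and IAA, and log2 fold changes of 0.08 in EG1 and 0 in LG1 cells.

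**Figure D5:**
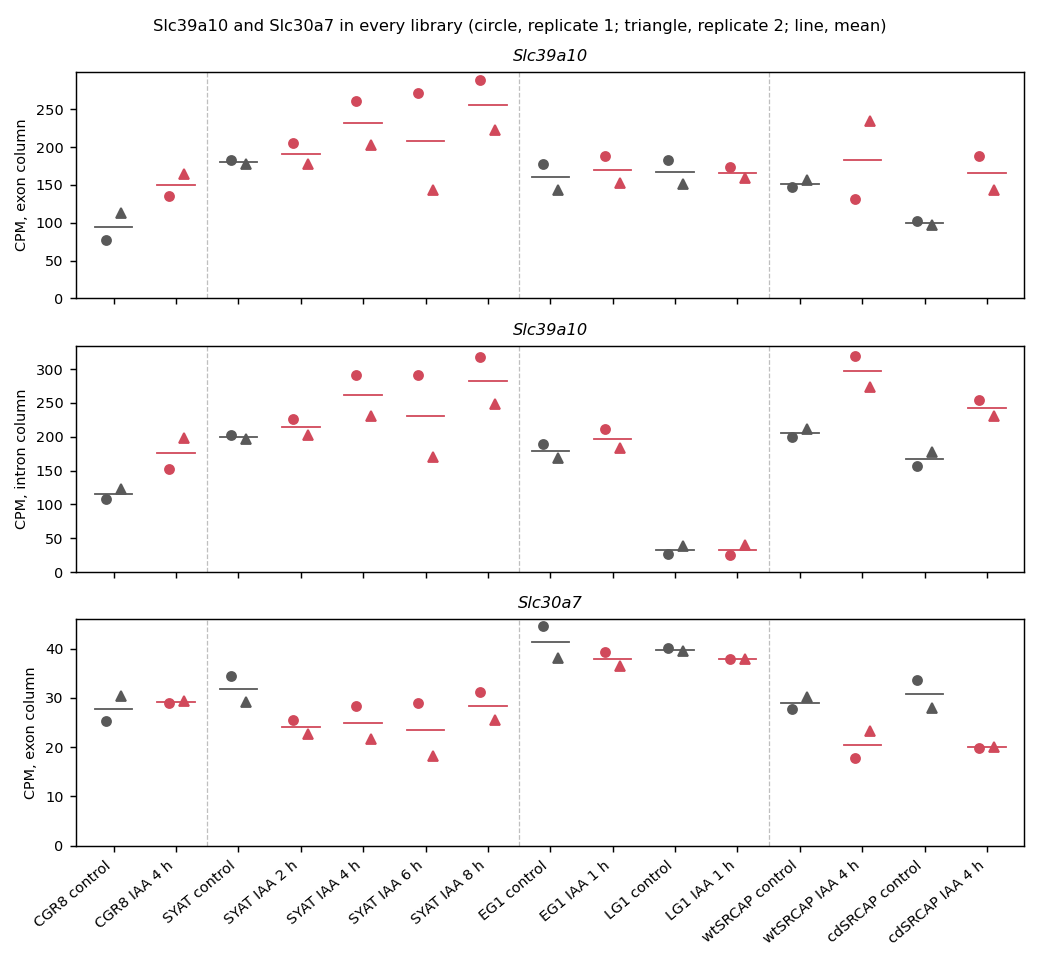
Slc39a10 in every library, as CPM of exon and of intron columns, and Slc30a7, as CPM of exon columns (y axis, from 0), by group (x axis), with a circle for replicate 1, a triangle for replicate 2, a line at the group mean, controls in grey and IAA in red. Slc39a10 exon values lie higher with IAA in CGR8 (136 and 164 against 76.7 and 113 CPM) and cdSRCAP cells, and Slc30a7 lies lower with IAA in wtSRCAP and cdSRCAP cells.

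The rest of the zinc pathway, given from fixed lists of genes, held no called gene in exon columns in any comparison. Of 13 other importers of the Slc39 family, 11 or 12 passed the filter, and of 4 other exporters 2 or 3 did. The importer with the lowest p was Slc39a9 at 2 h in SYAT cells (log2 fold change -0.58, edgeR adjusted p = 0.877), and it was also lower at 8 h (-0.46, edgeR adjusted p = 0.225). At 6 h the importer with the lowest p was Slc39a4, the intestinal importer (log2 fold change 0.81, edgeR adjusted p = 0.158). Of the other metallothioneins, Mt3, the growth inhibitory factor of brain, had a log2 fold change of 0.98 at 6 h (edgeR adjusted p = 0.299). At 6 h 16.1% of all genes had an unadjusted edgeR p under 0.05, and replicate 2 of that time stood apart. All 4 other genes known as MTF1 targets, Gclc, Csrp1, Ndrg1 and Selenow, passed the filter, and none had an unadjusted p under 0.05 after IAA. The 3 zinc channels and chaperones and the 8 copper handling genes held none called either, with Cbwd1 at 4 h (log2 fold change -0.68, edgeR adjusted p = 0.282) and Slc31a1, the copper importer, at 6 h (-0.51, edgeR adjusted p = 0.294) as the lowest p-values in SYAT cells.

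Across the 10 SYAT exon libraries, which share 1 control pair and 1 table, the genes most like Mtf1 out of 19205 were Glyctk (Pearson r = 0.97), Zfp846 (0.958), Ubox5 (0.946), R3hcc1l (0.943) and Tgds (0.941). Those most like Slc30a4 were Sgpp1 (0.973), Cpd (0.967), Dok5 (0.963), Ehd4 (0.961) and Gatm (0.961), and replicate 1 of Slc30a4 was higher in every group. Of the members, Slc30a7 had a Pearson r of 0.43 with Mtf1 (Spearman rho 0.37) and Slc30a5 one of 0.347 (rho 0.467), so that which was more alike depended on the measure. At the other end stood Slc30a1 (r = -0.486, rho -0.539) and Mt1 (r = -0.306, rho -0.564), while Mt2 had r = -0.0353. These values describe 10 libraries, and no p is given for them.

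Between the sorted controls, intron columns gave 4 calls among the members, Mt1, Mt2, Slc30a1 and Slc39a10, all higher in EG1 than in LG1. In that comparison 59% of 17441 genes were called, and the columns of EG1 and LG1 libraries differ in kind, as the genes with a single exon showed. With exon and intron counts summed, none of the 4 was called. In the other tested intron comparisons edgeR called no member. Of all genes it called 0.022% in CGR8 cells. In SYAT cells it called 0%, 0%, 0.0136% and 0.00679% at 2, 4, 6 and 8 h, and 0% at any time. Between the controls of the induced lines it called 0.102%, between their IAA groups 0.0157%, and for the difference 0%. These shares depend on the test, since DESeq2 called 66, 270, 562 and 476 genes at 2, 4, 6 and 8 h in SYAT introns. At an unadjusted p under 0.05 in edgeR, 1 of 6 members passed in introns of CGR8 cells (5.24% of all genes), 1 with wtSRCAP (12.4%) and 2 with cdSRCAP (11.3%). None of the 6 passed between the controls of these lines (7.07%), between their IAA groups (10.2%) or for the difference (2.54%), and none of 10 at 2, 4, 6 or 8 h (5.13%, 9.5%, 14.5% and 13.5%) or at any time (6.86%) in SYAT cells. Between EG1 and LG1 controls 5 of the 8 members tested passed in introns, as did 64.5% of all genes. Groups lay apart in introns for 2 members lower (17.5%) and 1 higher (19.2%) in CGR8 cells, 1 lower (21.1%) and 2 higher (20.4%) with wtSRCAP, and 2 lower (24.6%) and 2 higher (21.8%) with cdSRCAP. With cdSRCAP 3 members were lower than with wtSRCAP in controls (16.2%) and 2 with IAA (20.1%). In sorted cells 3 were lower (14.7%) and 1 higher (8.2%) with IAA in EG1, and 2 lower (13.7%) and 1 higher (13.3%) in LG1.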

How the data were processed

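Nuclear RNA of 30 libraries was sequenced by the authors, and the deposited values are raw read counts per gene. Per the study's methods and the submitters' processing notes, reads were aligned with STAR to mm10 and counted with featureCounts, separately for exons and introns, with SAMtools 1.10 and Picard also named. The strand setting of the counting is not given in the sources used here. GENCODE identifiers were matched to symbols for 55141 of 55401 genes.

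Members and lists were chosen with earlier results of these data known. All 10 members are named, and of the other lists only called genes or the gene of lowest p. Each table was fitted whole with edgeR 4.0.16 in R 4.3.3 (filterByExpr, TMM, glmQLFit and glmQLFTest), with Benjamini-Hochberg adjustment over all genes, and scripts were tested on simulated data with 200 changed genes. Sorted cells used an absolute log2 fold change over 0.25 and an unadjusted p under 0.05. Depth was 12236493 to 60214521 exon counts per library, and 3 counts were taken as the floor, which covers counting error only. Alternatives were DESeq2 1.42.0 size factors and Wald test, no filter, a replicate block, summed exon and intron counts, the compared groups alone, and each library left out. Replicate numbers were taken to pair samples where same-numbered libraries deviated together in all 6 pairs of groups, in G1 cells (correlations of 0.372 to 0.586 in exon and 0.141 to 0.638 in intron columns) and in exon columns of wtSRCAP and cdSRCAP (0.259 to 0.376). This pairing comes from the values, since no label ties the numbers to a shared batch. Intron columns of wtSRCAP and cdSRCAP also correlated above 0 in all 6 pairs, but more weakly (0.0759 to 0.296). Values there are given without the block. Likeness used log2 CPM with a prior count of 2. Levels per kilobase divided CPM by the exon length of each gene. Promoter windows came from RefSeq, GRCm38.p6.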

Additional observations from a re-analysis of the deposited data

Results flagged for a closer look

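Slc30a9 exon counts and Slc30a4 intron counts moved in opposite directions after 1 h of IAA in early and late G1 cells, in every library and without overlap between groups. For Slc30a9 the log2 fold change was -0.11 in EG1 and 0.11 in LG1 cells, as for 1.87% of genes that moved in opposite ways. For Slc30a4 it was 0.1 in EG1 and -3.15 in LG1 cells, as for 1.3% of genes, in intron columns that differ in kind between EG1 and LG1 libraries. Its ratio of intron to exon counts was 1.02 to 1.11 in EG1 and 0.00838 to 0.123 in LG1 libraries, so unlike quantities are set side by side. The difference between EG1 and LG1 was not tested for either gene, since the list was chosen on these comparisons.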

How the results depend on the processing

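Of 551 alternative values over 54 results, 522 stayed the same by the rule for their kind. A tested value of 1 gene stayed the same if it kept its direction and side of the threshold. A count of calls did so if it was equal or nearly equal. A median or an untested value did so if it moved by less than the spread between duplicates. Count of members called in exon columns, 0 as reported, became 1 without the filter in CGR8 cells (Slc39a10) and at 6 h and any time in SYAT cells (Mt2). Same-numbered libraries did not deviate together throughout in SYAT cells (exon correlations of -0.0359 to 0.589) or in CGR8 cells (0.0736). With the replicate block, 1 member was called in CGR8 cells (Slc39a10, 0.68, adjusted p = 0.0062 in edgeR), between EG1 and LG1 controls (Mt1, -0.54) and with cdSRCAP (Slc39a10, 0.74), and no other call among the members changed. Leaving out 1 library gave 0 to 1 calls in CGR8 exons and introns (Slc39a10, without control replicate 2), 0 to 2 at 6 h in exons and introns (Mt2 and Slc30a7, without 6 h replicate 1) and 0 to 1 at any time in exons (Mt2). With exon and intron counts summed, the 4 intron calls between EG1 and LG1 controls became 0, and Mt1 (-0.15), Mt2 (-0.23) and Slc30a7 (0.12) reversed. Over all genes, counts of calls moved far more. In exon columns of CGR8 cells 2 genes became 500 with the block, 386 without the filter, and 3 to 2361 without 1 library (the highest without control replicate 2), and in SYAT cells 0 became 9 at 2 h and 185 at 4 h in DESeq2, 13 became 885 at 6 h without the filter, and 0 to 3163 without 1 library, and 1 became 634 at 8 h with the block. With the block 1 became 612 with wtSRCAP, 0 became 345 with cdSRCAP, 257 became 1269 in EG1 and 214 became 883 in LG1. In intron columns 38 and 30 calls with wtSRCAP and cdSRCAP became 468 and 344 without the filter. In SYAT introns 0, 0, 2 and 1 calls at 2, 4, 6 and 8 h became 66, 270, 562 and 476 in DESeq2. The cause was not tested. Duplicates and intron depths down to 2006573 counts limit what can be seen for low genes such as Slc30a4.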
